A study of Arabidopsis thaliana with 4 samples.

Results

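SIM (AT5G04470), SMR1 (AT3G10525), SMR2 (AT1G08180), SMR8 (AT1G10690), SMR9 (AT1G51355) and SMR13 (AT5G59360) are 6 of the 14 SIAMESE-type inhibitor genes of Arabidopsis thaliana that were looked up in a root tip RNA-seq study, whose table of expression levels held 26822 usable gene lines. They were picked because their levels were higher in plants that overexpress the transcription factor gene SCL28 than in wild type. The difference between these genotypes therefore chose them, and it is given below as a description, without a test. The lines were found by gene name or locus, and each of the 6 genes had exactly 1 line, with no other line sharing its interval.

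The study compared wild type (WT) with SCL28-OX, a single overexpressing line that the labels give a line number but no promoter, both in the Col-0 background. All plants were 5 d-old seedlings grown in constant light at 22 °C on 1/2 MS agar, and the RNA came from root tip according to the tissue label and from roots according to the extraction protocol. With 2 libraries per genotype, expression was given as FPKM, in which the fragments of a gene are divided by its transcript length and by the size of the library. Nothing in the labels tells if both libraries of a genotype were grown separately, and a p-value here covers only the spread between libraries, which may be technical.

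SIAMESE and the SIAMESE-RELATED (SMR) proteins are small plant proteins that bind complexes of a cyclin with a cyclin-dependent kinase (CDK) and inhibit them. Cells that accumulate them leave the mitotic cycle and can go on to endoreduplication, in which DNA is replicated without division. In the root, cells make this change as they leave the meristem, and members of the family differ in tissue and in the signals that induce them. SCL28 belongs to the GRAS family of plant transcription regulators.

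The 6 genes are single-exon genes with short coding regions, from 333 bases in SMR8 to 465 bases in SMR13. Aligned in pairs over their coding regions, they shared between 42.6% of bases (SMR8 with SMR13) and 70.0% (SIM with SMR1) of the longer gene in the 15 pairs. A search of the coding regions, started from SIM, looked for the 8 codons whose encoded amino acids were most alike in the 6 genes. It scored amino acids and not bases, and the other family members did not enter it. The 24 bases of the stretch it found in each gene are printed here. Each is read 5′ to 3′ on the coding strand of the TAIR10 nuclear sequence, and capitals mark the 8 bases identical in all 6 genes.
SIM: CCtcctcCaCCgcagAAaCcccgt
SMR1: CCtcctcCgCCgagaAAaCcccgg
SMR2: CCtccgcCgCCaagaAAgCgaccg
SMR8: CCagcggCgCCaaagAAgCgtaaa
SMR9: CCaccggCaCCgaagAAgCaaaag
SMR13: CCtcgacCgCCgagaAAgCcaaaa
The stretches lie at chr5:1267100-1267123 (minus strand) in SIM, chr3:3281765-3281788 (minus) in SMR1, chr1:2564888-2564911 (minus) in SMR2, chr1:3550329-3550352 (minus) in SMR8, chr1:19041697-19041720 (plus) in SMR9 and chr5:23945736-23945759 (minus) in SMR13. SMR1 shared 19 of the 24 bases with SIM, and the others shared 11 to 14. The stretch was chosen by the search and is not particular to the 6 genes: the best matching stretches of the 8 other family members shared 9 to 15 bases with SIM. Every 50-base word of each of the 6 transcripts, also across this stretch, occurred only once in the nuclear genome. Only exact matches were searched.

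The upstream sequence is shown for SMR2 and SMR9, the 2 genes with the highest ratio of SCL28-OX to WT, and for SIM, the gene with the highest level. Each is the window of 250 bases before the RefSeq gene start on the gene's own strand, in lower case with the core of the mitosis-specific activator (MSA) element in capitals, a motif bound by MYB3R transcription factors. The windows are chr1:2565319-2565568 (minus strand) for SMR2, chr1:19041147-19041396 (plus) for SMR9 and chr5:1267417-1267666 (minus) for SIM.
SMR2: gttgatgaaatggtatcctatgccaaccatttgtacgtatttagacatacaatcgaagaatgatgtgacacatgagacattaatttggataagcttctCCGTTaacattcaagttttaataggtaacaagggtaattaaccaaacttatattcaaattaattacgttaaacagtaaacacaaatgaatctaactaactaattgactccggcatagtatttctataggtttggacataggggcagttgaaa
SMR9: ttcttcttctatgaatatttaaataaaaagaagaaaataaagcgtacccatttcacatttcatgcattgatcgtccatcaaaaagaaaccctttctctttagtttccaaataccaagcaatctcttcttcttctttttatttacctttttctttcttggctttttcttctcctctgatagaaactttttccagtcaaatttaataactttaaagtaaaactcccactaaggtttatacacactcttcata
SIM: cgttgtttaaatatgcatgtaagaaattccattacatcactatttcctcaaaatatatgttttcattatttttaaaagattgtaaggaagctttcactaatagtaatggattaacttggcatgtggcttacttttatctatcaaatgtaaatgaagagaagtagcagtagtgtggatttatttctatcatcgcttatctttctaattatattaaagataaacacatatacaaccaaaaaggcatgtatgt
The MSA core AACGG was searched on both strands and was present, as its reverse complement CCGTT, 152 to 148 bases before the start of SMR2. No match was found in the windows of the 5 other genes. The motif occurred in 20.6% of the 27443 windows of the same length in the genome, and in 4 of the 8 other SIAMESE-type genes. The E2F motif TTTCCCGC, a site of S-phase regulators, occurred in 0.619% of all windows, in none of the 6 genes and in 1 of the 8 others. No matches of these motifs overlapped in the windows of the family, and a match is a description of sequence only.

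SCL28 itself, the overexpressed gene, was at 6.78 and 7.57 FPKM in WT and at 2378 and 2300 FPKM in SCL28-OX. Its log2 difference was 8.16 with a standard error (SE) of 0.04, on the scale log2(FPKM + 1) used for every log2 difference here (limma, adjusted p = 1.31e-10). This matched the labels in each of the 4 libraries.

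SIM, the founding member, was named for the clustered, multicellular leaf hairs of its mutant, in which hair cells divide instead of endoreduplicating. It lies at chr5:1266625-1267416 on the minus strand. Its level was 59.5 and 66.1 FPKM in WT and 82.5 and 94.8 FPKM in SCL28-OX. Both overexpressing libraries lay above both WT libraries, and SIM had the highest level of the family in each genotype. The means were 62.8 ± 4.64 and 88.7 ± 8.74 FPKM (SD, n = 2 libraries each), a ratio of 1.41. The log2 difference was 0.49 with an SE of 0.07. In bulk tissue like this, fewer cells of a type and less RNA per cell cannot be told apart, so a higher level may be more RNA in the same cells or more cells that hold it.

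SMR1, also known as LOSS OF GIANT CELLS FROM ORGANS, is needed for the large endoreduplicated cells of the sepal epidermis. It lies at chr3:3281362-3282032 on the minus strand and is the closest of the 6 to SIM in sequence. Its level was 48.5 and 51.9 FPKM in WT and 69.8 and 64.8 FPKM in SCL28-OX. The groups did not overlap, and the smallest gap, between 51.9 and 64.8 FPKM, was wider than the distance between the libraries of either genotype. The means were 50.2 ± 2.40 and 67.3 ± 3.52 FPKM (SD, n = 2), a ratio of 1.34 and a log2 difference of 0.42 with an SE of 0.05. This was the lowest ratio among the 6 genes.

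SMR2, which acts with SMR1 in restraining cell division in leaves, lies at chr1:2564572-2565121 on the minus strand. Its level was 16.1 and 18.7 FPKM in WT and 33.4 and 35.4 FPKM in SCL28-OX. The libraries of a genotype lay close together and the genotypes stood well apart. The means were 17.4 ± 1.85 and 34.4 ± 1.38 FPKM (SD, n = 2), so the ratio was 1.97 and the log2 difference 0.95 with an SE of 0.07. SMR1 and SMR2 differed between genotypes by nearly the same amount in FPKM, 17.1 and 17.0, although SMR2 started from the lower level.

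SMR8, SMR9 and SMR13 have been less studied and were present at much lower levels. SMR8 (chr1:3549992-3550632, minus strand) was at 3.67 and 5.54 FPKM in WT and at 8.09 and 7.27 FPKM in SCL28-OX. The WT libraries differed from each other by about as much as the higher of them differed from the lower overexpressing library, and the groups did not overlap. For counting error alone, the 95% interval of WT replicate 2 reached 6.95 FPKM. That of SCL28-OX replicate 2 started at 5.83 FPKM, so these intervals overlapped. The means were 4.60 ± 1.32 and 7.68 ± 0.581 FPKM (SD, n = 2), a ratio of 1.67 and a log2 difference of 0.65 with an SE of 0.15, the widest error of the 6. The value rested on 1 WT library: without WT replicate 1 it was 0.41, and without WT replicate 2 it was 0.89.

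SMR9 (chr1:19041397-19042146, plus strand) had the lowest WT level of the 6 and the highest ratio. Its level was 0.825 and 1.05 FPKM in WT and 3.11 and 3.94 FPKM in SCL28-OX. In fragments, read from the steps of the FPKM scale, these were 16 and 17 in WT against 51 and 60 in SCL28-OX. The exact Poisson 95% intervals reached at most 1.68 FPKM in WT and started at 2.31 FPKM in SCL28-OX. Such intervals cover counting error only, and SMR9 was picked for this difference, so nothing is read from the gap. The means were 0.937 ± 0.159 and 3.53 ± 0.588 FPKM (SD, n = 2), a ratio of 3.76. Because 1 FPKM is added before the logarithm, the log2 difference of 1.22 (SE 0.12) understates a change at this level, and with 0.1 FPKM added it was 1.80.

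SMR13 (chr5:23945345-23946430, minus strand) was at 2.82 and 2.95 FPKM in WT and at 4.73 and 3.88 FPKM in SCL28-OX. The WT libraries were nearly equal, and both overexpressing libraries lay above them. The means were 2.88 ± 0.0901 and 4.31 ± 0.602 FPKM (SD, n = 2), a ratio of 1.49 and a log2 difference of 0.45 with an SE of 0.10. Counting error alone was of the size of the gap: the 95% interval of the higher WT library reached 3.69 FPKM and that of the lower overexpressing library started at 3.13 FPKM. The fragments behind SMR13 were 86 and 75 in WT and 122 and 93 in SCL28-OX.

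**Figure D1:**
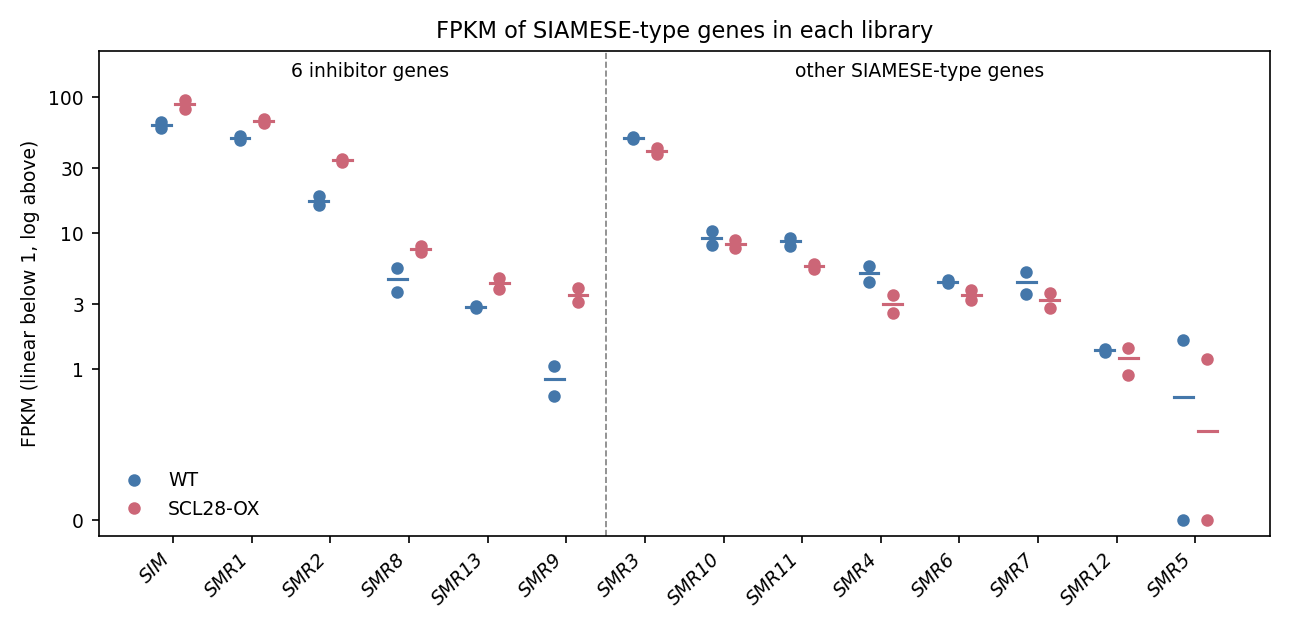
FPKM of the 14 SIAMESE-type genes in each of the 4 libraries (points, WT blue and SCL28-OX red) with the mean of each genotype as a bar; the vertical axis is linear below 1 FPKM and logarithmic above. In the 6 genes on the left both SCL28-OX points lie above both WT points, from SIM at 59.5 to 94.8 FPKM down to SMR9 at 0.825 to 3.94 FPKM.

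All 6 genes were among the genes called higher in SCL28-OX (adjusted p under 0.05 in limma over the 18087 genes whose mean reached 1 FPKM), which were 32.7% of those tested. Calls in either direction came to 66.5%. Their groups did not overlap, as in 83.6% of the genes tested, and 41.4% of the genes tested had SCL28-OX wholly above WT. Since the genes were picked on this difference, nothing is read from these counts. All 6 passed the filter on low values, SMR9 through its level in SCL28-OX, since its WT mean was under 1 FPKM. The smallest log2 differences inside the selection were 0.42 in SMR1, 0.45 in SMR13 and 0.49 in SIM. The nearest family members outside it were SMR12 at -0.12 and SMR10 at -0.13, so no family member lay between.

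The 6 genes differed widely in level in the root tip. SIM had a higher mean level in WT than 84.3% of the genes tested, SMR1 than 80.8% and SMR2 than 55.5%. SMR8 stood above 20.3% of the genes tested, SMR13 above 11.9% and SMR9 above 0.498%. The low share of SMR9 reflects the filter, since its WT mean lay under 1 FPKM and genes below the filter were not tested. The levels of the 6 genes summed to 131.4 and 146.2 FPKM in WT and to 201.6 and 210.1 FPKM in SCL28-OX. SIM and SMR1 together made up most of that sum, with 82.2% and 80.7% in WT and 75.5% and 76.0% in SCL28-OX.

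In WT the order of mean FPKM was SIM, SMR1, SMR2, SMR8, SMR13 and SMR9, and no neighbours in it had overlapping libraries. Among all 14 family members, however, SMR1 overlapped SMR3, SMR8 overlapped SMR4, SMR6 and SMR7, and SMR9 overlapped SMR5. Those genes were not separated by the spread between libraries. In SCL28-OX, SMR1 stood apart above SMR3, and SMR8 overlapped SMR10. SMR9, next to last in WT, overlapped SMR13, SMR6, SMR7 and SMR4 in SCL28-OX.

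None of the 8 other SIAMESE-type genes was called higher, which the selection itself brings about. SMR3, whose WT level was close to that of SMR1, was at 51.4 and 49.8 FPKM in WT and at 42.2 and 38.5 FPKM in SCL28-OX, a log2 difference of -0.32. SMR4, known from the stomatal lineage, differed by -0.58, SMR11 by -0.53 and SMR6 by -0.25, and these 4 genes were called lower, against 33.8% of all genes tested. SMR7, a gene induced by DNA damage, differed by -0.35 without passing the test, and its libraries overlapped between genotypes, as did those of SMR10 and SMR12. SMR5, also induced by DNA damage, was listed at 0 in 1 library of each genotype and was not tested. Summed over the 8 genes, FPKM was 82.9 and 86.3 in WT and 67.7 and 64.3 in SCL28-OX. SIM, SMR1, SMR2, SMR8, SMR9 and SMR13 held 61.3% and 62.9% of the family's FPKM in WT and 74.9% and 76.6% in SCL28-OX. Picking the genes that rose fixed the direction of this shift in share, so nothing is read from it. The family as a whole summed to 214.4 and 232.5 FPKM in WT and to 269.3 and 274.4 FPKM in SCL28-OX.

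Transcript length moved with the difference between the genotypes. Over 17801 genes with an annotated length, the Spearman correlation of length with the log2 difference was 0.677, a description across genes that share the same 4 libraries, and with the GC content of the transcript it was 0.403. Long transcripts tended to be higher in SCL28-OX and short ones lower. The 6 genes are short, with RefSeq transcripts of 792 bases in SIM, 826 in SMR1, 929 in SMR8, 958 in SMR2, 1018 in SMR9 and 1099 in SMR13. Of the 2186 genes with transcripts of 792 to 1099 bases, 6.82% were called higher and 72.8% were called lower, with a median log2 difference of -0.34. The 6 genes had higher levels in SCL28-OX, which their selection brought about, while most genes of their length had lower ones.

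With the trend on transcript length removed, the log2 differences were larger in each of the 6 genes. SIM went from 0.49 to 0.88, SMR1 from 0.42 to 0.79 and SMR13 from 0.45 to 0.71. SMR2 reached 1.27, SMR8 0.99 and SMR9 1.52. On that scale 23.4% of genes were called higher, 22.7% lower and 46.2% in either direction, and the 6 genes lay above 97.9% (SMR13) to 99.8% (SMR9) of the genes with a length. Without the correction they had lain above 86.8% (SMR1) to 99.7% (SMR9) of genes. The genes were picked on this difference, so nothing is read from these ranks. A correction for length and GC content together gave 0.84 (SMR13) to 1.63 (SMR9), where 20.8% of all genes were called higher, 21.3% lower and 42.1% in either direction.

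The median over the 6 genes was 0.57 as deposited, 0.93 with the length correction and 0.95 with length and GC, while the median of all genes was -0.01 on each scale. The other family members, with the untested SMR5 included, had a median transcript of 778 bases. For the 7 of them that were tested, the median log2 difference was -0.32 as deposited and 0.06 with the length correction. None of those 7 was called lower once length was corrected. SMR12 came out as higher by 0.42, and SMR3, SMR7 and SMR10 changed sign to 0.06, 0.10 and 0.20. Of the other genes called lower as deposited, SMR4 stood at -0.16, SMR6 at -0.03 and SMR11 at -0.23 with the length correction. SMR11 was close to the threshold (limma, adjusted p = 0.0567). The part of length in these values and the cause of the trend were not tested.

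**Figure D2:**
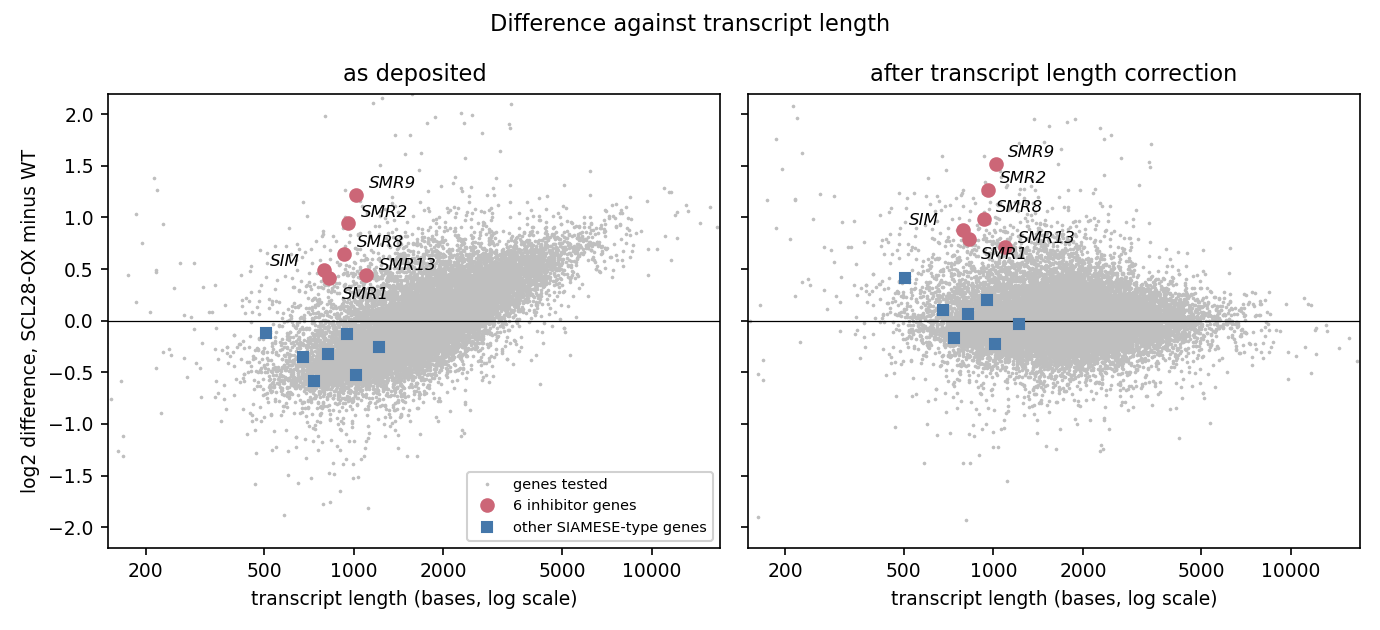
Difference in log2(FPKM + 1) between SCL28-OX and WT against RefSeq transcript length in bases (log scale), as deposited (left) and with the trend on length removed (right), with the genes tested as grey points, the 6 inhibitor genes in red and the other SIAMESE-type genes in blue; 9 genes on the left and 11 on the right lie beyond the limits of 2.2. The 6 genes, picked for their higher level in SCL28-OX, lie above most genes of their length in both panels, while the blue squares lie within the grey cloud.

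The other class of CDK inhibitors in plants is the KRP proteins, relatives of the animal Kip proteins. Of 7 KRP genes tested, 0 were called higher, 1 was called lower and 6 were not called, against 32.7% called higher and 33.8% lower over all genes. Their median was -0.05, and their summed FPKM was 95.1 and 99.0 in WT and 91.2 and 92.8 in SCL28-OX. The gene that fell was KRP7, by 0.58 on the log2 scale (limma, adjusted p = 0.000442). With the length correction 2 KRP genes were called higher and 1 lower, against 23.4% and 22.7% of all genes.

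The kinases that SIAMESE-type proteins bind were also measured. CDKA;1, the main CDK of plants, was at 56.8 and 56.2 FPKM in WT and at 50.5 and 48.9 FPKM in SCL28-OX, and CDKB1;1, a mitotic CDK that SIM and SMR1 can also bind, differed by -0.28. CDKA;1 fell by 0.18 on the log2 scale (limma, adjusted p = 0.00141) and CDKB1;1 passed as well (limma, adjusted p = 0.00228), but neither was called with the length correction. Of 13 CDK, CKS and CDK-activating kinase genes tested, 3 were called higher and 7 lower (32.7% and 33.8% of all genes), and with the length correction 3 and 2 (23.4% and 22.7%). The largest falls were those of CKS2 (-0.55) and CKS1 (-0.46), the small subunits of CDK complexes, whose values shrank to -0.14 and -0.10 with the length correction, and CKS1 was then no longer called. The largest rises were those of CDKD;3 (0.48), a kinase that activates CDKs, and its partner CYCH;1 (0.28).

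D-type cyclins, the partners of CDKA;1 at the entry to the cycle and known binding partners of SIAMESE-type proteins, included genes called in either direction. Of 9 tested of 10, 2 were called higher and 3 lower, where 32.7% and 33.8% of all genes were. CYCD1;1 was at 15.5 and 15.1 FPKM in WT and at 24.3 and 24.2 FPKM in SCL28-OX, a rise of 0.63 (limma, adjusted p = 9.68e-06). CYCD3;3, which keeps cells dividing, was at 24.7 and 24.9 FPKM in WT and at 15.3 and 16.5 FPKM in SCL28-OX and fell by 0.61 (limma, adjusted p = 2.61e-05). Both kept their call with the length correction, at 0.44 and -0.48, and CYCD4;1 fell by 0.37 (limma, adjusted p = 0.00117). CYCD5;1 rose by 0.23, a call that was lost in 6 of the alternatives, among them leaving out WT replicate 1 (0.13) or SCL28-OX replicate 2 (0.19) and the length correction (0.22).

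Among 16 A- and B-type cyclins, which drive S phase and mitosis, 6 were called higher and 4 lower, with 32.7% and 33.8% of all genes so called, and their differences ran from -0.33 to 0.31. CYCA2;2 (0.31) and CYCA2;4 (0.30) rose most, and CYCA1;1 (-0.33) and CYCB1;1 (-0.30) fell most. With the length correction 3 were called higher and 4 lower, against 23.4% and 22.7% of all genes. Of 9 genes that promote or restrain entry into the endocycle, 3 were called higher and 1 lower, against the same 32.7% and 33.8%. ILP1, which promotes endoreduplication by repressing cyclin A2 genes, rose by 0.48 as deposited and differed by 0.16, not called, with the length correction. FBL17, an F-box protein that acts on KRP proteins, rose by 0.19 and differed by 0.03, not called, with the length correction. SAMBA, a regulator of the anaphase-promoting complex, fell by 0.59, and by 0.16 with the length correction. CCS52A1, an activator of that complex at the onset of endoreduplication, differed by 0.12 (limma, adjusted p = 0.0522) and was not called. It was called in 5 of the alternatives: without WT replicate 2 (0.17), with a minimum mean of 5 FPKM, with median-ratio scaling, with robust eBayes and with the replicate block.

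Genes of the G1/S control that CDK activity acts on included 5 called higher and 2 lower of 9, where 32.7% and 33.8% of all genes were. RBR1, the retinoblastoma-related repressor, rose by 0.53 (limma, adjusted p = 0.000163) and E2FA, its activating partner, by 0.44 (limma, adjusted p = 0.00262), while DPA fell by 0.40 (limma, adjusted p = 8.95e-05). With the length correction RBR1 stood at 0.07 and was not called, and E2FA stayed at 0.41, although the interval of E2FA, like those of CDKD;3 and ILP1, is shared with another line whose reads may not have been told apart. CDT1B, a replication licensing factor, fell by 0.27, a call lost in 5 of the alternatives, among them leaving out WT replicate 1 (-0.18) or SCL28-OX replicate 1 (-0.16).

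Known or possible regulators of SIAMESE-type genes came last. MYB3R1, a MYB factor that binds the MSA element, was at 5.64 and 5.33 FPKM in WT and at 10.0 and 10.1 FPKM in SCL28-OX. It rose by 0.77 as deposited (limma, adjusted p = 2.5e-05) and by 0.31 with the length correction. Its relative MYB3R4 rose by 0.43 (limma, adjusted p = 0.00159), but stood at 0.02 with the length correction. AtSMOS1, an AP2-type factor reported to act together with SCL28, rose by 0.21 (limma, adjusted p = 0.00941), a call lost in 3 of the alternatives, without WT replicate 2 (0.19), with quantile normalization (0.14) and with length and GC (0.14), and its interval is shared with another line. SOG1, the DNA damage regulator upstream of SMR5 and SMR7, differed by -0.04 (limma, adjusted p = 0.488). GL1 and ATML1, which act upstream of SIM and SMR1 in leaf hairs and sepals, were listed at 0 in all 4 libraries and at under 0.1 FPKM, respectively. GL3, the partner of GL1, rose by 0.22 as deposited, a call that was lost in 6 of the alternatives, among them leaving out WT replicate 1 (0.17) or SCL28-OX replicate 2 (0.17) and the length correction (-0.02). Over all 7 lists, 24 of 72 tested genes were called higher and 18 lower, with a median of -0.02, so the share called higher was close to the 32.7% of all genes. With the length correction 15 were called higher and 14 lower, against 23.4% and 22.7% of all genes, and the differences ran from -0.48 to 0.53.

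**Figure D3:**
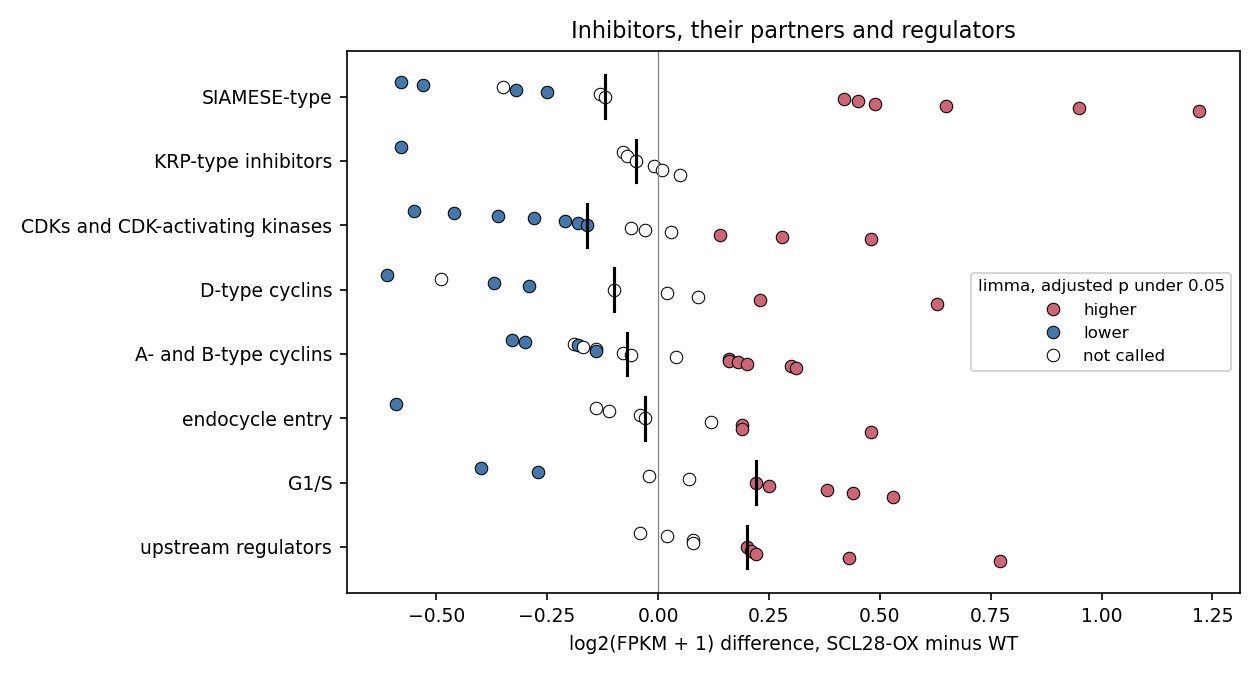
Difference in log2(FPKM + 1) between SCL28-OX and WT for each tested gene (points) of the SIAMESE-type family and of 7 lists of related cell-cycle genes, as deposited, coloured by the limma call, with the median of each list as a bar. The SIAMESE-type genes fall into the 6 picked genes at 0.42 to 1.22 and the others at -0.12 and below, and the 7 other lists lie between -0.61 and 0.77.

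The neighbours of the 6 genes on the chromosome were measured to see whether the regions moved together. SMR9 lies 2037 bases from DABB1 (AT1G51360), which was at 7.98 FPKM on average in WT and at 15.4 FPKM in SCL28-OX. Its log2 difference was 0.87 as deposited and 1.26 with the length correction, while the neighbour on the other side of SMR9, AT1G51350, was at 0.39 and 0.17. SMR2 lies next to VPS41, a gene for vacuolar sorting, at 0.62 as deposited and 0.22 corrected. The neighbours of SIM, AT5G04460 and AT5G04480, were at 0.44 and 0.43 as deposited and at 0.05 and -0.03 corrected. HB2, next to SMR1, stood at -0.26 and 0.05, PRS3, next to SMR8, at -0.07 and AT5G59350, next to SMR13, at -0.05 as deposited. The remaining neighbours were not tested because of their low level.

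The genes whose pattern over the 4 libraries was most like the mean of the 6 were sought among the 14285 genes whose mean reached 5 FPKM, by the smallest Euclidean distance between centred log2 profiles. They were SAC9 at a distance of 0.0374, AT1G04810 at 0.0416, NEF1 at 0.0440, AT3G56410 at 0.0445 and 4CL2 at 0.0480, with log2 differences of 0.67 to 0.72. A likeness over 4 libraries is weak. With the length correction SAC9 stood at 0.03, AT3G56410 at 0.08 and 4CL2 at 0.60.

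The tissue was checked with marker genes. Root markers were present in all libraries: endodermis markers summed to 407.9 and 404.6 FPKM in WT and 436.1 and 420.6 FPKM in SCL28-OX, and root hair markers to 240.8 and 243.2 against 248.3 and 248.8 FPKM. The 4 root cap markers summed to 48.2 and 51.0 FPKM in WT and 37.1 and 37.8 FPKM in SCL28-OX, with BRN1 and BRN2 called lower, FEZ called higher (0.51) and SMB not called. The 3 phloem markers summed to 21.5 and 22.7 FPKM in WT and 35.1 and 37.3 FPKM in SCL28-OX, with SUC2 and SEOR1 called higher and APL not called. Meristem markers summed to 55.5 and 58.4 FPKM in WT and 64.5 and 63.3 FPKM in SCL28-OX, with 1 of 5 called higher and 1 lower. The 4 xylem markers summed to 288.1 and 291.2 FPKM in WT and 298.8 and 299.4 FPKM in SCL28-OX, with 2 called higher. Of 7 shoot markers, which should be near 0 in root tips, FAMA and GL1 were at 0. RBCS1A averaged 19.3 FPKM in WT and 39.3 FPKM in SCL28-OX, LHCB1.3 27.3 and 38.2, and GAPA 6.0 and 8.7. These 3 of the 4 tested were called higher, and LHCB2.1 was not called. The 7 shoot markers summed to 54.2 and 54.2 FPKM in WT and 88.0 and 87.1 FPKM in SCL28-OX. Over all genes tested, 32.7% were called higher and 33.8% lower, so no shift of tissue is read from such small counts. The part of these marker levels in the values of SIM, SMR1, SMR2, SMR8, SMR9 and SMR13 was not tested. Summed FPKM was 951429 and 945618 in WT and 848731 and 849311 in SCL28-OX, and the FPKM steps implied 26100000 to 33100000 fragments per library if each was scaled by its own mapped fragments.

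The differences of the 6 genes kept their direction under all 15 alternative settings that could be run for them, and SMR9 and SMR13 were left out where a mean of at least 5 FPKM was required. Because the genes were picked for that direction, it is no sign of stability, and the sizes are given as a description. Leaving out a library moved SIM between 0.39 and 0.59, SMR1 between 0.36 and 0.47 and SMR2 between 0.84 and 1.05. SMR8 moved between 0.41 and 0.89, SMR9 between 1.09 and 1.35 and SMR13 between 0.33 and 0.56. The choice of what is added before the logarithm mattered most for the low genes: with 5 FPKM in place of 1, SMR9 stood at 0.52 and SMR13 at 0.24.

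**Figure D4:**
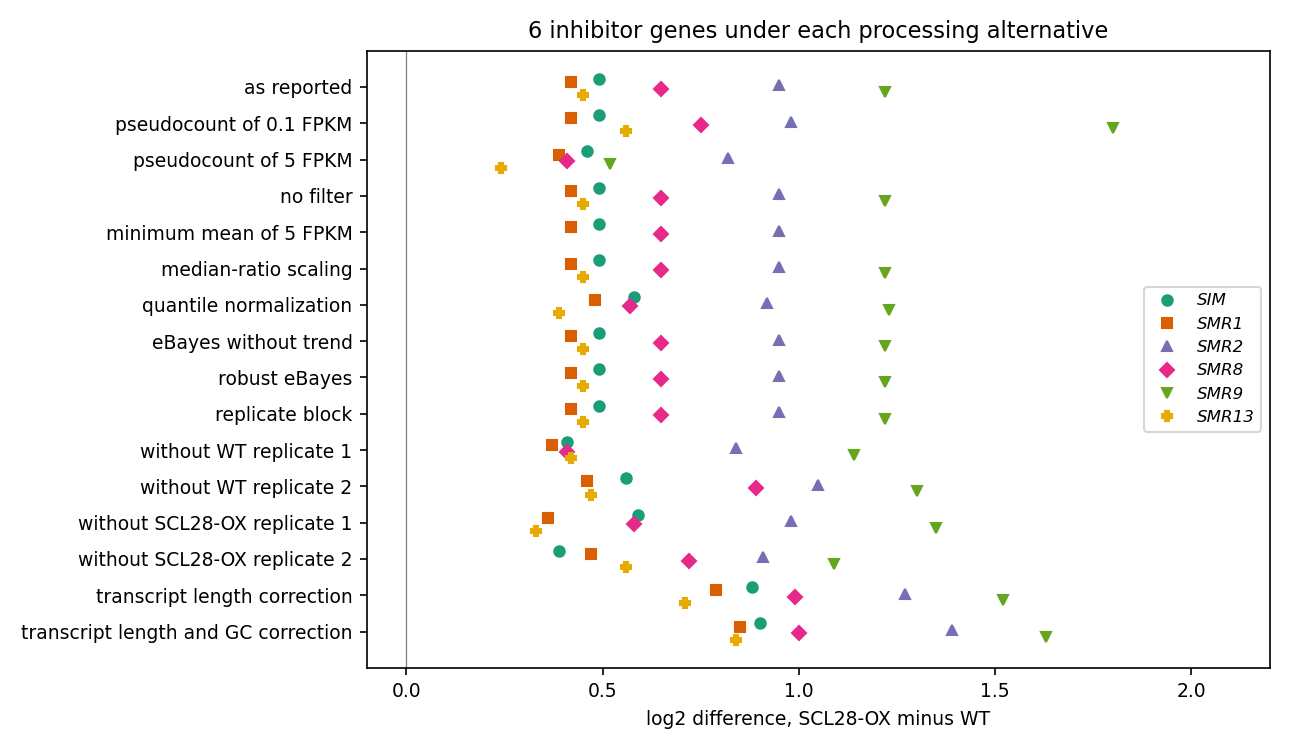
Difference in log2 between SCL28-OX and WT for each of the 6 inhibitor genes (one symbol per gene) as reported and under each of 15 alternative settings, with 0 as a grey line. Every symbol lies to the right of 0, from SMR13 at 0.24 with a pseudocount of 5 FPKM to SMR9 at 1.80 with a pseudocount of 0.1 FPKM.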

How the data were processed

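RNA-seq was measured in 2 WT and 2 SCL28-OX libraries. Libraries were made with a stranded mRNA kit, per the labels' protocols. Per the submitters' processing notes, the tools used on the TAIR10 build included Cuffdiff 2.2.0, TopHat2 2.0.13 and CASAVA 1.8.2. The sources used here give no strand setting for the counting. The authors deposited FPKM per gene and library, per the file headers. No read counts were used, so no count model was applied. A second deposited table of the comparison gave names and positions.

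Of 26883 lines, 49 were left out for shifted columns and 11 because the authors' mean differed from the mean of the libraries by over 0.1%, and 1 is not analysed here. The 18087 genes whose mean reached 1 FPKM entered limma 3.58.1 (R 4.3.3; lmFit and eBayes with a mean-variance trend) as log2(FPKM + 1), and two-sided p-values were adjusted over all of them by Benjamini-Hochberg at a threshold of 0.05. Length and GC trends were removed by loess (span 0.5) on RefSeq TAIR10.1 transcripts. The fit was also run on simulated data with few genes changed and the spreads shuffled over genes. That setting is unlike these data, so nothing is read from it. Fragments per gene were read from the FPKM steps of intronless genes, of which 90.0% to 91.7% were whole within 0.1. Sequences and gene starts are from RefSeq TAIR10.1, positions of genes from the deposited table on TAIR10, counted from 1.

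The members, gene lists and tests were chosen with earlier results of these data known. Named besides SCL28 and the 14 SIAMESE-type genes were up to 2 rises and 2 falls per list, genes tied to SIM or an SMR gene by known role, chromosomal neighbours and the 5 genes of most alike pattern.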

Additional observations from a re-analysis of the deposited data

How the results depend on the processing

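SCL28 kept its direction and call under all 15 alternatives. The 6 inhibitor genes were picked on the same difference, so their values are given as a description. The median over the 6 genes (0.57) was 0.44 with a pseudocount of 5 FPKM, 0.93 with the length correction, 0.95 with length and GC, and 0.42 to 0.73 when single libraries were left out. Over all genes, 5911 were called higher and 6112 lower. The length correction left 4048 lower, and length with GC 3706 higher and 3787 lower. Of 72 pathway genes, 24 were called higher and 18 lower. Higher calls numbered 13 with quantile normalization, 15 with the length correction, 15 with length and GC, and 15 to 20 with single libraries left out, the lowest without WT replicate 1. Length with GC left 10 lower. Among the other family members, SMR10 ranged from -0.28 to 0.02 and SMR12 from -0.28 to 0.04 when single libraries were left out, above 0 without WT replicate 2 and without SCL28-OX replicate 2, respectively. With the length correction SMR3 (0.06), SMR7 (0.10), SMR10 (0.20) and SMR12 (0.42) changed sign, and with length and GC SMR3 (0.16), SMR6 (0.12), SMR7 (0.14), SMR10 (0.31) and SMR12 (0.36) did. The cause was not tested.

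With the replicate number as a block, 5793 genes were called higher and 6161 lower. In this balanced design the block cannot change a log2 difference, only its error and p-value. Deviations of same-numbered libraries correlated at 0.122 over 18087 genes, but with 2 numbers only they were not taken as pairs. With 2 libraries of a genotype and 1 overexpressing line, neither a second line nor separate cultures could be compared, and the low counts behind SMR8, SMR9 and SMR13 limit their precision.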
